A study of Mus musculus with 11 samples.

Results

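The calcium pumps and inositol trisphosphate (IP3) receptors described here are 9 listed genes: the Golgi pumps Atp2c1 and Atp2c2, the endoplasmic reticulum (ER) pumps Atp2a2 and Atp2a3, the plasma membrane pumps Atp2b1 and Atp2b4, and the release channels Itpr1, Itpr2 and Itpr3. They were taken as all probe sets that the platform annotation gives to 1 of these symbols alone. Here and below, a gene's probe sets are those that carry its symbol and no other. The list was chosen by measured values, because Atp2c2 had been seen at a higher level after streptozotocin (STZ) in the control diet only. For the members, the STZ effects in either diet, the difference between them and every value of Atp2c2 are therefore given as description, without a test. Of the 9 genes, 8 had such a probe set, and 7 of the 15897 genes tested in the series were members. They held 25 of the 45101 probe sets on the array, and 22 of these 25 had a mean above the limit for dim signals, a log2 signal of 6.866. The only probe set of Atp2b4 lay below that limit, with a mean of 4.73 and a range over arrays of 4.67 to 4.92, so Atp2b4 was not tested. Itpr1 was not analysed here.

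Cells keep cytosolic calcium low by pumping it out across the plasma membrane and into the ER and Golgi. In the acinar cells of the pancreas, which make the digestive enzymes, agonists such as cholecystokinin and acetylcholine activate phospholipase C. The IP3 it forms opens IP3 receptors on the ER near the apical pole, and the calcium released there drives enzyme secretion. SERCA pumps (the Atp2a genes) refill the ER, PMCA pumps (the Atp2b genes) remove calcium from the cell, and SPCA pumps (the Atp2c genes) load the Golgi and secretory pathway with calcium and manganese. Beta cells use the same machinery around voltage-gated calcium entry in insulin secretion.

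RNA came from whole pancreas of female Balb/C offspring aged 30 days. Their dams ate a diet of 20% protein (control) or an isocaloric diet of 8% protein (low protein) while pregnant, and all dams had the control diet from the birth on. The pups received STZ, a toxin taken up by beta cells, at 35 mg per kg, or vehicle (sham), once a day on days 1 to 5. The 11 Affymetrix arrays were 3 control sham, 2 control STZ (replicates 1 and 3), 3 low protein sham and 3 low protein STZ. Dams and litters were not used in the design, so a diet difference and a litter difference cannot be told apart. Each p-value sets a difference between group means against the spread of these samples within groups.

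Median log2 signals per array lay between 7.92 and 7.97. Ins2, an insulin gene, averaged a log2 signal of 14.97 ± 0.23 (SD, n = 3) in control animals given vehicle and 13.25 ± 0.22 (n = 2) in those given STZ. In low protein its means were 13.88 ± 0.60 after vehicle and 13.13 ± 0.38 after STZ, with n = 3 each. The islet amyloid gene Iapp stood at 14.48, 12.56, 12.82 and 12.48 in the same order, and the islet glucose-6-phosphatase gene G6pc2 at 9.10, 6.71, 7.22 and 7.11. All 15 acinar markers with a probe set were above the limit, so acinar tissue was present on every array. Of 9 beta cell markers with a probe set, Slc2a2 and Slc30a8 were dim. The log2 of the summed acinar marker signal ranged over 19.28 to 19.36 in control sham, 19.14 to 19.22 in control STZ, 18.88 to 18.93 in low protein sham and 18.52 to 19.01 in low protein STZ. The part of these marker levels in the results below was not tested. Control sham 1 and low protein STZ 1 lay at the ends of the first principal component, which held 38.4% of the variance.

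Atp2c2, the SPCA2 pump of secretory epithelia, was highest in the control STZ arrays. Its log2 signal was 10.25, 10.03 and 10.11 in control sham 1, 2 and 3, and 10.79 and 10.56 in control STZ 1 and 3. In low protein sham it was 10.28, 10.11 and 10.09, and in low protein STZ it was 9.72, 10.00 and 10.09. Both control STZ arrays lay above all other 9 arrays, and low protein STZ 1 was the lowest. In whole tissue, a change in the number of cells that hold a transcript cannot be told apart from a change in its amount per cell.

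Between STZ and sham in the control diet, Atp2c2 was higher by 0.55 ± 0.12 log2 (SE of the fit, n = 2 against 3), which is 1.46-fold. In the low protein diet the difference was -0.22 ± 0.11 (n = 3 against 3), the groups overlapped, and it was -0.11 when low protein STZ 1 was left out. The STZ effects of the diets differed by -0.77 ± 0.17. These were the contrasts used to choose the gene. The diet difference after STZ shares the control STZ arrays with them, and there Atp2c2 was 1.67-fold lower in low protein, by -0.74 ± 0.12 log2 and without overlap. In sham animals the diet difference was 0.03 ± 0.11, with overlap. The acinar marker sum was lower in control STZ than in control sham, the opposite order to Atp2c2, and lower in low protein STZ than in control STZ without overlap, the same order as Atp2c2. The beta cell sum was also lower in control STZ than in control sham. Of 9 duct markers tested, 8 were higher in control STZ than in control sham, the direction of Atp2c2, while the summed ductal signal was 15.16 to 15.35 in control sham, 15.10 to 15.14 in control STZ, 14.73 to 14.80 in low protein sham and 14.30 to 14.78 in low protein STZ. The part of these markers in the values of Atp2c2 was not tested.

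**Figure D1:**
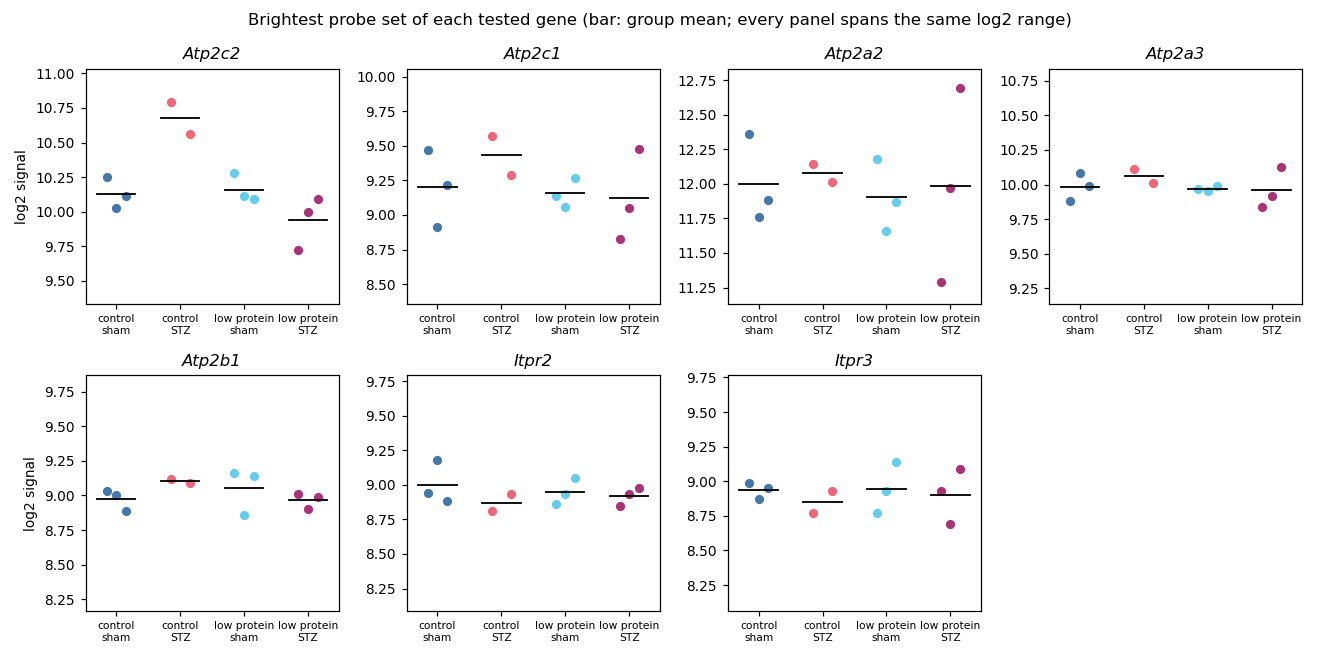
Log2 signal of the brightest probe set of each tested pump and receptor gene on every array, by group, with points for arrays and bars for group means. Both control STZ arrays of Atp2c2 (10.56 and 10.79) lie above its other 9 arrays, while Atp2a2 spreads from 11.29 to 12.69 within low protein STZ.

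The genes with the profile nearest to that of Atp2c2 were found by the root mean square difference of log2 values, each centred on the gene's own mean, over the 11 arrays and 15896 genes. Around its own mean Atp2c2 had a root mean square of 0.28. The nearest were Mcrip2 (0.08), Akt1s1 (0.10), a component of the mTOR complex, Iscu (0.11), the scaffold of iron-sulfur cluster assembly, Mydgf (0.11), a secreted growth factor, Cox8a (0.12), a subunit of cytochrome c oxidase, and Fis1 (0.12), a mitochondrial fission protein. In Mcrip2 the group means were 10.60 in control sham, 11.02 in control STZ, 10.59 in low protein sham and 10.44 in low protein STZ. This order follows from how the gene was chosen. Among the members Atp2c1 came nearest, at rank 246 (0.19), followed by Atp2b1 at rank 1817 and Atp2a3 at rank 1947. Itpr2 (rank 11404), Itpr3 (rank 12600) and Atp2a2 (rank 12775) stood far down that order.

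Atp2c1 encodes SPCA1, the widely expressed Golgi pump. Its brightest probe set, 1437738_at, had log2 signals of 9.47, 8.91 and 9.22 in control sham, 9.57 and 9.29 in control STZ, 9.14, 9.06 and 9.27 in low protein sham, and 8.83, 9.05 and 9.48 in low protein STZ. The groups overlapped in each comparison of diet or injection, and the spread within low protein STZ (SD 0.33) exceeded every difference between group means. The STZ difference was 0.23 ± 0.20 in the control diet and -0.04 ± 0.17 in low protein. The diet difference was -0.04 ± 0.17 in sham animals and -0.31 ± 0.20 after STZ, with 95% intervals of -0.43 to 0.34 and -0.74 to 0.12. Neither passed limma's test (adjusted p = 0.958 and 0.663).

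The other probe sets of Atp2c1 did not share an order of groups. Probe set 1434386_at had log2 signals of 7.33, 7.44 and 7.58 in control sham, 7.08 and 7.23 in control STZ, 6.92, 7.18 and 7.21 in low protein sham, and 7.18, 7.08 and 7.18 in low protein STZ. All 3 control sham arrays lay above the other 8. In sham animals it was 1.27-fold lower in low protein, by -0.34 ± 0.10 (95% interval -0.56 to -0.13), with an unadjusted p of 0.00433 and a limma adjusted p over all probe sets of 0.281, so it did not pass. Of the 11 marker sums, 5 had the same split, with all control sham arrays above the other 8: those of acinar cells, of beta cells, of alpha, delta and PP cells, of ducts and of endothelium. How many of all probe sets had that split was not counted, so it is not read as particular to 1434386_at. The part of these 5 marker sums in its values was not tested.

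Probe set 1442742_at of Atp2c1 stood at 7.01, 7.04 and 7.01 in control sham, 6.81 and 7.09 in control STZ, 7.16, 7.04 and 7.21 in low protein sham, and 7.10, 7.35 and 7.22 in low protein STZ. Its low protein arrays were the higher ones after STZ, by 0.27 ± 0.10 without overlap (unadjusted p = 0.0215, limma adjusted p = 0.554). In sham animals they were higher by 0.12 ± 0.09 (unadjusted p = 0.23, limma adjusted p = 0.75), without overlap, though both groups had 7.04 after rounding. The mean diet difference over both injections was 0.19 ± 0.07 (unadjusted p = 0.0162, limma adjusted p = 0.286). Probe set 1431196_at went the other way after STZ, with a diet difference of -0.27 ± 0.11 without overlap (unadjusted p = 0.0343, limma adjusted p = 0.604), and with -0.16 when both arrays at the ends of the first principal component were left out. Its STZ difference in the control diet was 0.22 ± 0.11, while that of 1434386_at was -0.30 ± 0.11. The remaining probe set, 1439215_at, was dim, with a mean of 4.49.

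**Figure D2:**
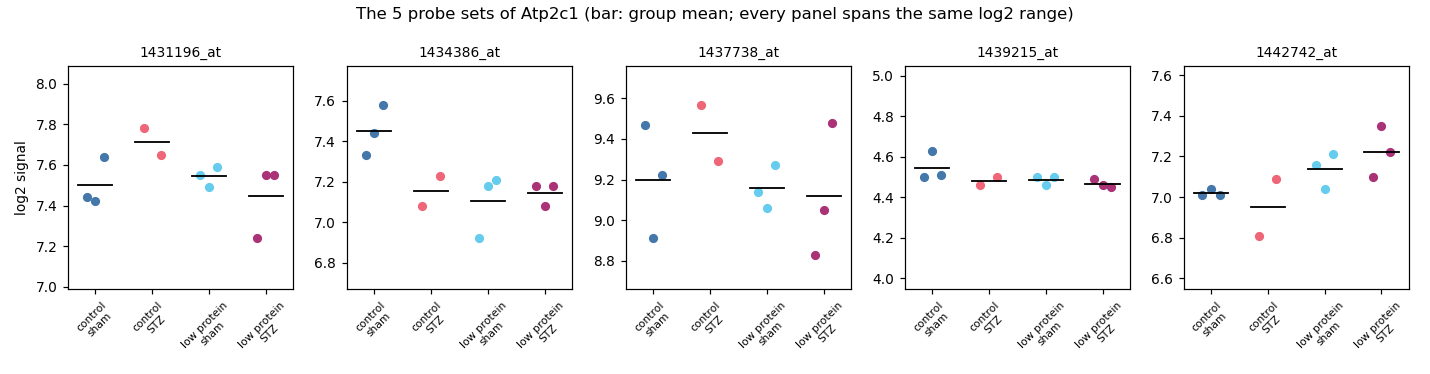
Log2 signal of each Atp2c1 probe set on the 11 arrays, by group, each probe set in a panel of its own. The control sham arrays of 1434386_at (7.33 to 7.58) lie above its other 8 arrays, a split that the other probe sets of the gene do not show.

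Atp2a2 encodes SERCA2, the main pump of the ER. Its brightest probe set, 1427250_at, had log2 signals of 12.36, 11.76 and 11.88 in control sham, 12.14 and 12.01 in control STZ, 12.18, 11.66 and 11.87 in low protein sham, and 11.29, 11.97 and 12.69 in low protein STZ. Low protein STZ held both its lowest array (replicate 1) and its highest (replicate 3), which were 2.64-fold apart. Its SD pooled over the groups was 0.44 log2, against a median of 0.12 over all genes tested. The group means, from 11.90 to 12.08, differed by less than this spread.

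The diet differences of Atp2a2 were -0.10 ± 0.29 in sham animals (95% interval -0.75 to 0.55, limma adjusted p = 0.944) and -0.09 ± 0.33 after STZ (adjusted p = 0.958). Both turned positive after cyclic loess between arrays, at 0.159 and 0.264. Probe set 1416551_at read 10.29, 10.08 and 9.79 in control sham and 9.70 and 9.74 in control STZ, a difference of -0.34 ± 0.24 without overlap. It read 10.16, 9.98 and 9.88 in low protein sham and 9.56, 9.98 and 10.56 in low protein STZ, so replicates 1 and 3 were again the ends. Probe set 1452363_a_at was higher in low protein sham (8.83, 8.68 and 8.75) than in control sham (8.64, 8.41 and 8.51), by 0.23 ± 0.15 without overlap, and did not pass limma's test (adjusted p = 0.692). The other 3 probe sets spanned at most 0.34 log2 over the 11 arrays.

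Low protein STZ 1, the lowest array for Atp2a2, was also the lowest for 12 of the 17 genes listed as luminal calcium-binding proteins. The 12 include Tmem165, a Golgi membrane protein. That array lay at an end of the first principal component. The share of all genes lowest on it was not counted, so the count is not read as particular to this list. Hspa5, the main ER chaperone, was at 12.61 in low protein STZ 1 and 14.07 in low protein STZ 3. Calr (calreticulin) was at 12.40 and 13.80, Hsp90b1 at 12.48 and 14.07, and Canx (calnexin) at 11.40 and 12.69 on those arrays. These 4 chaperones were singled out after their values were seen. Low protein STZ 1 was the lowest of the 11 arrays for each of them, while control STZ 1 was the highest for Hspa5 (14.08), Hsp90b1 (14.12) and Calr (13.87). Low protein STZ 1 also had the lowest acinar marker sum (18.52). The part of that marker sum in these values was not tested.

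**Figure D3:**
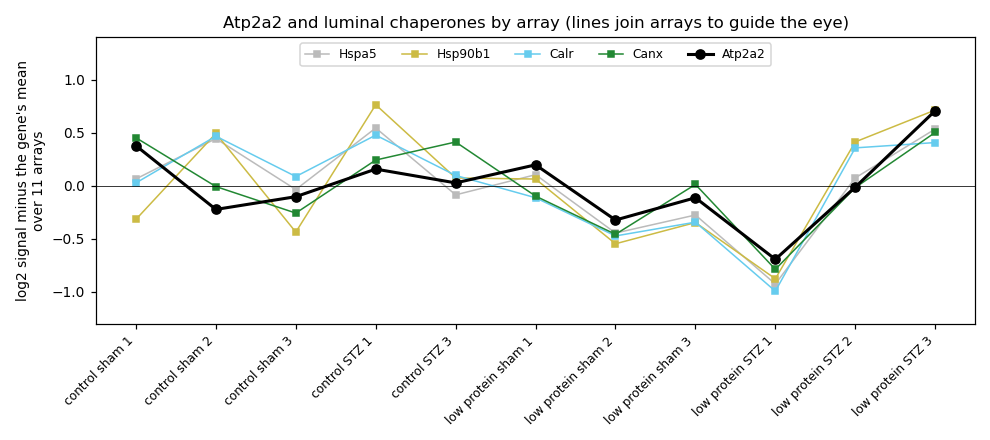
Log2 signal of Atp2a2 and 4 ER chaperones minus each gene's mean, on each of the 11 arrays in group order, with lines joining the arrays of a gene. Low protein STZ 1 is the lowest array for all of these (log2 signal 11.29 for Atp2a2 and 12.61 for Hspa5), and low protein STZ 3 lies above the mean for each.

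Atp2a3 encodes SERCA3, the other ER pump of epithelial cells, and it varied least among the members tested. Its log2 signal was 9.88, 10.08 and 9.99 in control sham, 10.11 and 10.01 in control STZ, 9.97, 9.95 and 9.99 in low protein sham, and 9.84, 9.92 and 10.13 in low protein STZ. The groups overlapped in each comparison of diet or injection. Its mean diet difference over both injections was -0.05 ± 0.06, with a 95% interval of -0.20 to 0.09 (limma adjusted p = 0.737). The STZ difference was 0.07 ± 0.10 in the control diet and -0.00 ± 0.09 in low protein. The second probe set, 1421129_a_at, ranged over 9.42 to 9.74.

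Atp2b1 encodes PMCA1, the pump found in the plasma membrane of most cells. It had log2 signals of 9.03, 9.0 and 8.89 in control sham, 9.12 and 9.09 in control STZ, 9.16, 8.86 and 9.14 in low protein sham, and 9.01, 8.90 and 8.99 in low protein STZ. The control STZ arrays lay just above the control sham arrays, by 0.13 ± 0.10 on average, and just above the low protein STZ arrays, where the diet difference was -0.14 ± 0.10 (limma adjusted p = 0.715). The diet difference in sham animals was 0.08 ± 0.09 (adjusted p = 0.794). Its other probe sets ranged over 7.76 to 8.33 (1428936_at) and 8.46 to 9.09 (1428937_at).

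Itpr2 and Itpr3 encode the IP3 receptor types that acinar cells use for secretion in the mouse. The brightest probe set of Itpr2 had log2 signals of 8.94, 9.18 and 8.88 in control sham, 8.81 and 8.93 in control STZ, 8.86, 8.93 and 9.05 in low protein sham, and 8.85, 8.93 and 8.98 in low protein STZ. The only probe set of Itpr3 had 8.99, 8.87 and 8.95, then 8.77 and 8.93, then 8.77, 8.93 and 9.14, then 8.93, 8.69 and 9.09 in the same groups. The groups of both genes overlapped in each comparison of diet or injection.

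For Itpr2 the STZ difference was -0.13 ± 0.10 in the control diet and -0.03 ± 0.09 in low protein. For Itpr3 these were -0.09 ± 0.13 and -0.05 ± 0.12. The mean diet difference over both injections was -0.00 ± 0.07 for Itpr2 (95% interval -0.15 to 0.15, limma adjusted p = 0.997) and 0.03 ± 0.09 for Itpr3 (-0.16 to 0.23, adjusted p = 0.891). The other 5 probe sets of Itpr2 had means between 7.68 and 8.74. Among these, 1427693_at was higher without overlap in control STZ than in control sham, by 0.06 log2.

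Set side by side, 4 of the 6 tested members other than Atp2c2 had a positive STZ difference in the control diet and 2 a negative one. Atp2c2 is left out of these counts, because it was chosen by this contrast. Of the 6, Atp2b1 alone was higher in control STZ without overlap (8.64% of all genes were) and none was lower without overlap (7.72% of all genes). In low protein none of the 6 was separated in either direction, against 2.6% of all genes higher and 5.14% lower. Over the 24 probe sets of the members other than that of Atp2c2, 3 were higher and 2 lower without overlap in control STZ. Of all probe sets 8.57% and 7.97% were. The median STZ difference of the 6 genes in the control diet was 0.07, and that of all genes 0.00. Over all genes tested, 0% passed the adjusted p of 0.05 for STZ in the control diet, and 644 genes had an unadjusted p under 0.05.

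The diet comparisons asked whether the diet of the dam in pregnancy left a difference in the offspring. None of the 6 tested members other than Atp2c2 passed limma's test in sham animals, after STZ or in the mean of both. Over all genes 0% passed in each of these comparisons, and 10.4%, 9.49% and 15.3% had an unadjusted p under 0.05. None of the 6 members had one, and their smallest adjusted p-values were 0.794, 0.663 and 0.562. In the mean of both injections 5 of the 6 were lower in low protein, with a median of -0.04, while 62.2% of all genes were lower, with a median of -0.03.

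Without overlap in sham animals, none of these 6 members was higher or lower, against 5.57% and 10.2% of all genes. After STZ, Atp2b1 alone of the 6 was lower without overlap (16.8% of all genes) and none was higher (7.48% of all genes). Atp2c2 was left out of these counts, because it was chosen by values of the same control arrays. Over the 24 probe sets other than that of Atp2c2, 1 had an unadjusted p under 0.05 in sham animals, 2 after STZ and 2 in the mean, where all probe sets of the array had 9.25%, 7.64% and 12%. None passed the adjusted p, as 0% of all probe sets did. In sham animals 2 of the 24 were higher and 2 lower in low protein without overlap, against 5.85% and 8.36% of all probe sets, and 1 of these, 1443551_at of Atp2a2, was dim.

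**Figure D4:**
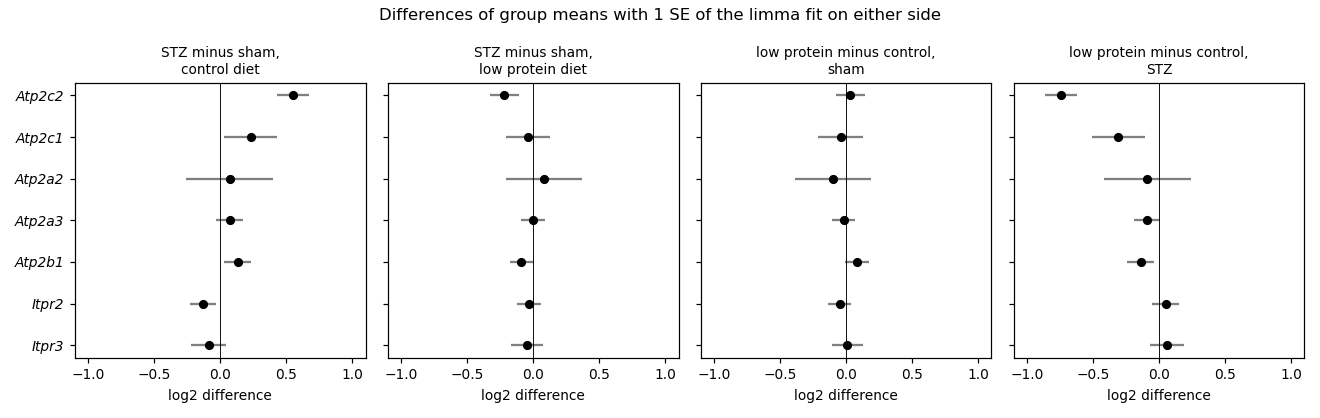
Log2 differences of the 7 tested members in each comparison, with lines for 1 SE of the fit on either side. Atp2c2 stands at 0.55 for STZ in the control diet and at -0.74 for low protein against control after STZ, and the other members stay between -0.31 and 0.23.

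The rest of the calcium machinery was followed in 9 lists with 144 genes, of which 131 had a probe set and 127 were tested. In the mean diet comparison 90 of the 127 were lower and 37 higher in low protein, a share of 70.9% lower against 62.2% of all genes. After cyclic loess the shares were 57.5% and 51.5%, and without both arrays at the ends of the first principal component they were 58.3% and 61.2%. At an unadjusted p under 0.05, 16 were lower, 12.6% of the 127 against 11.7% of all genes, and 6 higher, 4.7% against 3.65%, and none passed the adjusted p. For STZ in the control diet 73 were higher and 54 lower, a share of 42.5% lower against 49.3% of all genes. At an unadjusted p under 0.05, 3 were higher, 2.4% of the 127 against 1.92% of all genes, and 4 lower, 3.1% against 2.13%. Markers of some cell types had the direction of most of these diet differences: 15 of 15 acinar, 7 of 7 beta cell, 9 of 9 endothelial, 5 of 6 alpha, delta and PP cell, 9 of 11 stromal and 7 of 9 duct markers tested were lower in low protein. In the other marker lists 3 of 5 adipocyte, 2 of 5 smooth muscle, 4 of 8 leukocyte, 3 of 6 intestinal and 2 of 4 nerve and glia markers were lower. The part of the markers was not tested.

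**Figure D5:**
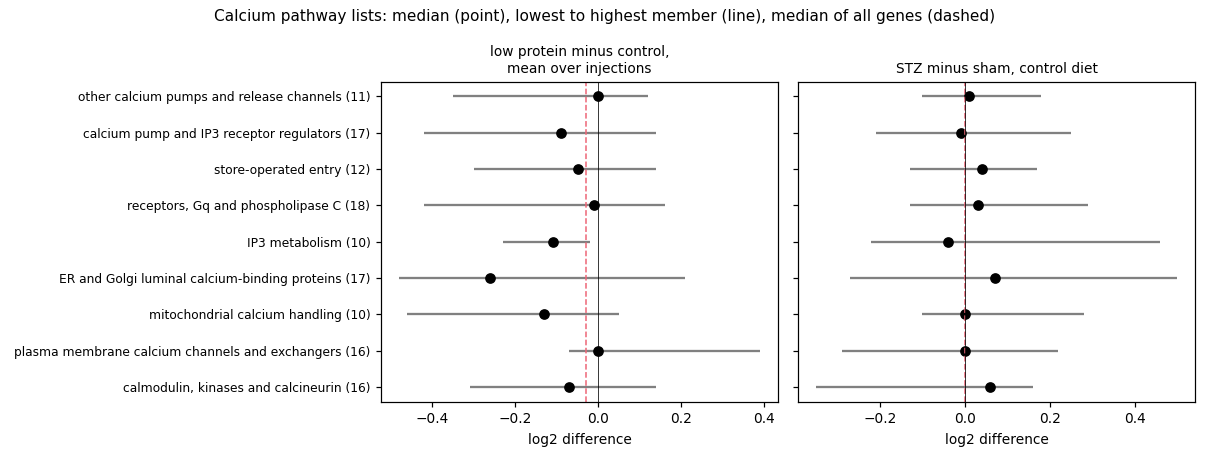
Log2 differences in each calcium list, for low protein minus control (mean of both injections) and for STZ minus sham in the control diet, with a point for the list's median, a line from its lowest to its highest gene and a dashed line for the median of all genes. The luminal calcium-binding proteins have the lowest diet median, -0.26, and the lists of other pumps and of plasma membrane channels have medians of 0.00.

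Luminal calcium-binding proteins buffer the calcium that the pumps bring into the ER and Golgi. Their list, which also holds the Golgi membrane protein Tmem165, had a diet median of -0.26, with 14 of 17 lower. That median was -0.03 after cyclic loess and -0.11 without both arrays at the ends. Sdf4, a Golgi luminal calcium-binding protein, differed by -0.36 ± 0.09 (limma adjusted p = 0.0944), with control and low protein arrays apart under both injections, and by -0.19 after loess. Nucb2, the nesfatin precursor, differed by -0.48 ± 0.17, by -0.14 after loess and by -0.30 without both arrays at the ends. The mitochondrial list had 8 of 10 lower with a median of -0.13, which was 0.01, with 4 of 10 lower, without both arrays at the ends. In it Smdt1, a regulator of the mitochondrial calcium uniporter, differed by -0.38 ± 0.09 (adjusted p = 0.0821), and the outer membrane channel Vdac2 by -0.46 ± 0.16. After loess these were -0.20 and -0.14.

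Enzymes of IP3 metabolism were lower in 10 of 10 genes, with a median of -0.11. After loess 9 of 10 were lower, and without both arrays at the ends 8 of 10, with a median of -0.06. Here Itpk1, an inositol phosphate kinase, differed by -0.12 ± 0.05 and Cdipt, the phosphatidylinositol synthase, by -0.23 ± 0.12 (-0.14 after loess and -0.09 without both arrays at the ends). The diet difference of Cdipt was 0.04 in sham animals and -0.49 after STZ. Among pump and receptor regulators 15 of 17 were lower (13 of 17 after loess, 14 of 17 without both arrays at the ends), with a median of -0.09. Fkbp1a, an immunophilin that binds calcium release channels, differed by -0.42 ± 0.13 (-0.13 after loess and -0.25 without both arrays at the ends), and Tespa1 by 0.14 ± 0.05. Calmodulin, kinases and calcineurin had 11 of 16 lower, where 62.2% of all genes were lower. After loess 9 of 16 were lower, and also 9 of 16 without both arrays at the ends. In this list the kinase Camkk2 differed by -0.24 ± 0.08 and Ppp3cb, a catalytic subunit of calcineurin, by -0.31 ± 0.11.

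For store-operated entry, the refilling route from outside the cell, 7 of 12 were lower (5 of 12 without both arrays at the ends), with -0.20 ± 0.08 for the channel Orai1 and 0.14 ± 0.06 for Sting1. Receptors, Gq and phospholipase C had 11 of 18 lower (7 of 18 after loess, 9 of 18 without both arrays at the ends), with -0.25 ± 0.08 for phospholipase Plcb4 and -0.27 ± 0.10 for Rgs2, which speeds the shut-off of Gq. The diet difference of Rgs2 was -0.04 in sham animals and -0.5 after STZ. Other pumps and release channels had 6 of 11 lower (5 of 11 after loess), with -0.35 ± 0.17 for Tmco1, a calcium channel of the ER (-0.20 without both arrays at the ends), and -0.11 ± 0.06 for the muscle pump Atp2a1. Plasma membrane channels and exchangers had 8 of 16 lower (5 of 16 after loess), with 0.39 ± 0.14 for the sodium-calcium exchanger Slc8a1 and 0.14 ± 0.06 for Cacnb1, a subunit of voltage-gated channels (0.23 after loess). Slc8a1 was higher in low protein without overlap under both injections, with 0.42 after loess and 0.26 without both arrays at the ends. None of these 18 named genes passed limma's test (adjusted p from 0.0821 to 0.429).

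For STZ in the control diet the 18 genes named by the same rule all had an adjusted p of 0.999 in limma's test. The lowest values were -0.35 ± 0.16 for Ppp3cb, -0.29 ± 0.11 for Trpm5 and -0.25 ± 0.09 for Trpm4, both calcium-activated cation channels, and -0.23 ± 0.14 for Rcn2. The highest were 0.49 ± 0.24 for the ER disulfide isomerase Pdia4, 0.46 ± 0.18 for Cdipt, 0.29 ± 0.15 for Rgs2 and 0.20 ± 0.10 for Rgs4. The diet differences of Cdipt and Rgs2 after STZ share the control STZ arrays with these values. Without both arrays at the ends Rcn2 was at -0.14 and Rgs4 at 0.13. The other 10 lay between -0.21 for Sln, a SERCA inhibitor of muscle, and 0.18 for the release channel Ryr1.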

How the data were processed

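The authors deposited 1 log2 signal for each probe set and array. Partek 6.5 and RMA are listed with no order, per the submitters' processing notes. The genome build is not given in the sources used here. Of 45101 probe sets, 34958 carried 1 gene symbol in the platform annotation, 932 several and 9211 none. Each of 18194 genes was represented by its brightest probe set. The 2297 genes at or under a mean of 6.866, the 0.25 quantile of probe set means, were not tested.

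A model of 4 group means was fitted across 15897 genes on all 11 arrays with lmFit and eBayes of limma 3.58.1 (R 4.3.3), two-sided, with Benjamini-Hochberg adjustment over all genes and a threshold of 0.05. The same model was fitted to all probe sets. Python 3.11.15 made the tables. The script was tested on simulated data. The number of arrays limits the precision. Replicate 2 of control STZ was not used here.

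The members and gene lists were chosen with earlier results of these data known. Named genes are the members, Ins2, Iapp and G6pc2, up to 2 genes of smallest unadjusted p per list for the mean diet comparison and for STZ in the control diet, and the 6 profiles nearest to Atp2c2. The ER chaperones on single arrays were chosen after their values were seen. Alternatives were cyclic loess, array weights, no filter, the mean of a gene's probe sets, only the groups compared, a replicate block and leaving out arrays.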

Additional observations from a re-analysis of the deposited data

How the results depend on the processing

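None of the 6 members tested for diet, which leaves out Atp2c2, passed the adjusted p under any alternative run. Of all genes, 7 passed for diet in sham animals and 796 for the mean diet comparison with array weights, against 0 in the fit reported, and 56 and 86 without both arrays at the ends of the first principal component, an alternative chosen after seeing the data. When 1 array was left out, the count ranged from 0 to 126 in sham animals (highest without low protein STZ 1, with 1, 3 and 8 without control sham 1, 2 and 3), 0 to 1 after STZ (without low protein STZ 3), and 0 to 460 in the mean (without low protein STZ 3, with 102 and 5 without control sham 2 and 3, and 161 and 89 without low protein STZ 1 and 2). It ranged from 0 to 1 for STZ in the control diet (without control sham 2) and was 0 to 0 for STZ in low protein and for the difference of STZ effects. The cause was not tested.

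Small diet differences of members turned sign. After cyclic loess, which moved the median of all genes by less than 0.1, Atp2a2 was 0.159 in sham animals, 0.264 after STZ and 0.211 in the mean, Atp2a3 was 0.046, 0.010 and 0.028, and the mean of Itpr2 was 0.022. Array weights gave 0.014 (sham) and 0.034 (mean) for Itpr2 and -0.088 (after STZ) and -0.018 (mean) for Itpr3. With the mean of all probe sets Atp2a2 was 0.008, 0.087 and 0.047, Atp2b1 in sham animals -0.004 and the mean of Itpr2 0.001. Without both end arrays Atp2c1 in sham animals was 0.088, Atp2a2 was 0.081, 0.253 and 0.167 and the mean of Itpr2 was 0.002. Leaving out 1 array gave -0.238 to 0.081 (sham), -0.447 to 0.253 (after STZ) and -0.273 to 0.077 (mean) for Atp2a2, and -0.189 to 0.088 for Atp2c1, -0.066 to 0.033 for Atp2a3 (both sham) and -0.054 to 0.021 for Atp2b1 (mean). For Itpr2 it gave -0.109 to 0.039, -0.014 to 0.112 and -0.032 to 0.044, and for Itpr3 -0.080 to 0.101, -0.036 to 0.163 and -0.012 to 0.089. The values of Atp2c2 ranged over 0.435 to 0.664 for STZ in the control diet and -0.857 to -0.628 for diet after STZ. Leaving out 1 array could not turn these signs, because both control STZ arrays lay above all others. The gene was chosen by these values, so the ranges are description only.

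Same-numbered arrays gave 15 pairs whose deviations from the group means correlated between -0.32 and 0.26, with 5 above 0.1, and 2 of 11 arrays were closest to an array of their own number, so the numbers were not taken to pair animals. With the replicate block 0 genes passed in every comparison (unadjusted p under 0.05 in 1636 genes for diet in sham animals, 1230 after STZ and 2191 in the mean), and the STZ difference of Atp2c2 in the control diet was 0.53. A fit of only the groups compared was not run for the mean diet comparison and the difference of STZ effects, which need all 4 groups. With 2 or 3 arrays a group, diet differences inside the intervals printed were not excluded.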
